A study of Mus musculus with 11 samples.

Results

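Imprinted genes are expressed from only 1 parental copy, and for some this holds in certain tissues only. Here 45 of them, spread over 16 imprinted loci, were followed in mouse embryonic stem (ES) cells kept in 3 culture media. The members are a list of named genes, 22 of them known for expression from the paternal copy, 22 from the maternal copy and Gnas by transcript. They were found on Agilent 1-colour expression arrays through the RefSeq accession of each probe. Of the 45, 42 had a probe named in this way, and 38 were tested among 16279 genes, having shown signal well above background on 3 or more of the 11 arrays. Meg3, Rian and H19 were not matched to a probe and are not analysed here. Rtl1 and Slc22a3 were well above background on 0 arrays, Slc22a2 on 1 and Zim1 on 2, so these 4 were not tested.

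The ES cells were of the 129/Ola background, from the lines E14, HVJu5.1 and HVJu9.3, unsorted, with no genotype change named in the labels. After a minimum of 3 passages in its medium, each sample gave 1 array: 3 in serum/LIF, 5 in 2i/LIF and 3 in KOSR/LIF. LIF, leukaemia inhibitory factor, is a cytokine that sustains self-renewal and was present in all 3 media. The 2i medium inhibits the kinases MEK and GSK3, and KOSR (knockout serum replacement) stands in for serum. The series asks whether the choice of medium sets a distinct state of the cells. For 2i/LIF replicates 1 to 4 the sample titles and source names disagree on the cell line, so the line was not part of the main test. The labels speak of independent clones. Nothing in the sources used here states that repeats of a line were cultured apart, so p-values reflect only how far these samples spread.

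An imprint is a methylation mark on DNA that is laid down in 1 germ line and kept on that parental copy through the waves of demethylation in the early embryo. A single marked region, the imprinting control region, often sets the expression of several neighbouring genes, so imprinted genes lie in clusters. Many of them act on growth of the fetus and placenta, and ES cells in culture are known to be able to lose imprints. The arrays measured total RNA and cannot tell the parental copies apart, so the allele given for each gene is background and was not measured.

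Levels below are log2 processed intensities relative to the 75th percentile of the same array, and changes are log2 ratios of media, each ± its standard error (SE). A level holds for 1 probe and was not compared between genes. The share of probes well above background was between 53.7% and 72.6% on 10 arrays and 43.7% on KOSR/LIF replicate 3, whose 75th percentile of intensity was 65.4 against 176 to 538 elsewhere. The ES cell markers Pou5f1, Sox2, Nanog, Zfp42 and Esrrb were well above background on all 11 arrays. In bulk samples such as these, fewer cells of a type and less RNA per cell cannot be told apart.

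In 2i/LIF against serum/LIF, 14 of the 38 tested members (36.8%) fell and 2 (5.26%) rose at an adjusted p under 0.05 (limma, Benjamini-Hochberg over all genes). Among all genes tested, 9.98% were called lower, 6.74% higher and 16.7% in either direction. The genes that fell were Peg10, Dlk1, Magel2, Ppp1r9a, Cdkn1c, Igf2, Sgce, Nnat, Dcn, Phlda2, Snrpn, Mkrn3, Ndn and Gnas, and those that rose were Plagl1 and Ddc. The median change over the 38 members was -0.68, against 0.03 over all genes. In these same 14 members every 2i/LIF array lay below every serum/LIF array, and in Plagl1 and Ddc every one lay above. Over all genes such separation was seen in 25.7%, 14% in the lower direction and 11.7% in the higher.

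In 2i/LIF against KOSR/LIF, 9 of the 38 members fell and 2 rose, where 8.72% of all genes were lower, 5.95% higher and 14.7% called in either direction. Peg10, Dlk1, Nnat, Dcn, Sgce, Ppp1r9a, Igf2, Cdkn1c and Magel2 fell, and Plagl1 and Cd81 rose. The members' median was -0.22 against 0.02 over all genes. The arrays of these media did not overlap in 14 members, lower in 11 and higher in 3, and in 19.6% of all genes (10.6% lower, 9.04% higher). KOSR/LIF against serum/LIF gave 1 call among the 38, the fall of Magel2, and 4.58% of all genes were called (2.21% lower, 2.37% higher). The median there was -0.32 against -0.03 over all genes. The arrays did not overlap in 10 members, lower in 9 and higher in 1, and in 28.4% of all genes (16% lower, 12.4% higher). Of the calls over all genes in that comparison 51.8% were higher, a split that moved to 41.1% with quantile scaling and to 34.9% with normexp background correction. Each medium enters 2 of the 3 comparisons, so the comparisons share arrays and their calls are not independent of each other.

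**Figure D1:**
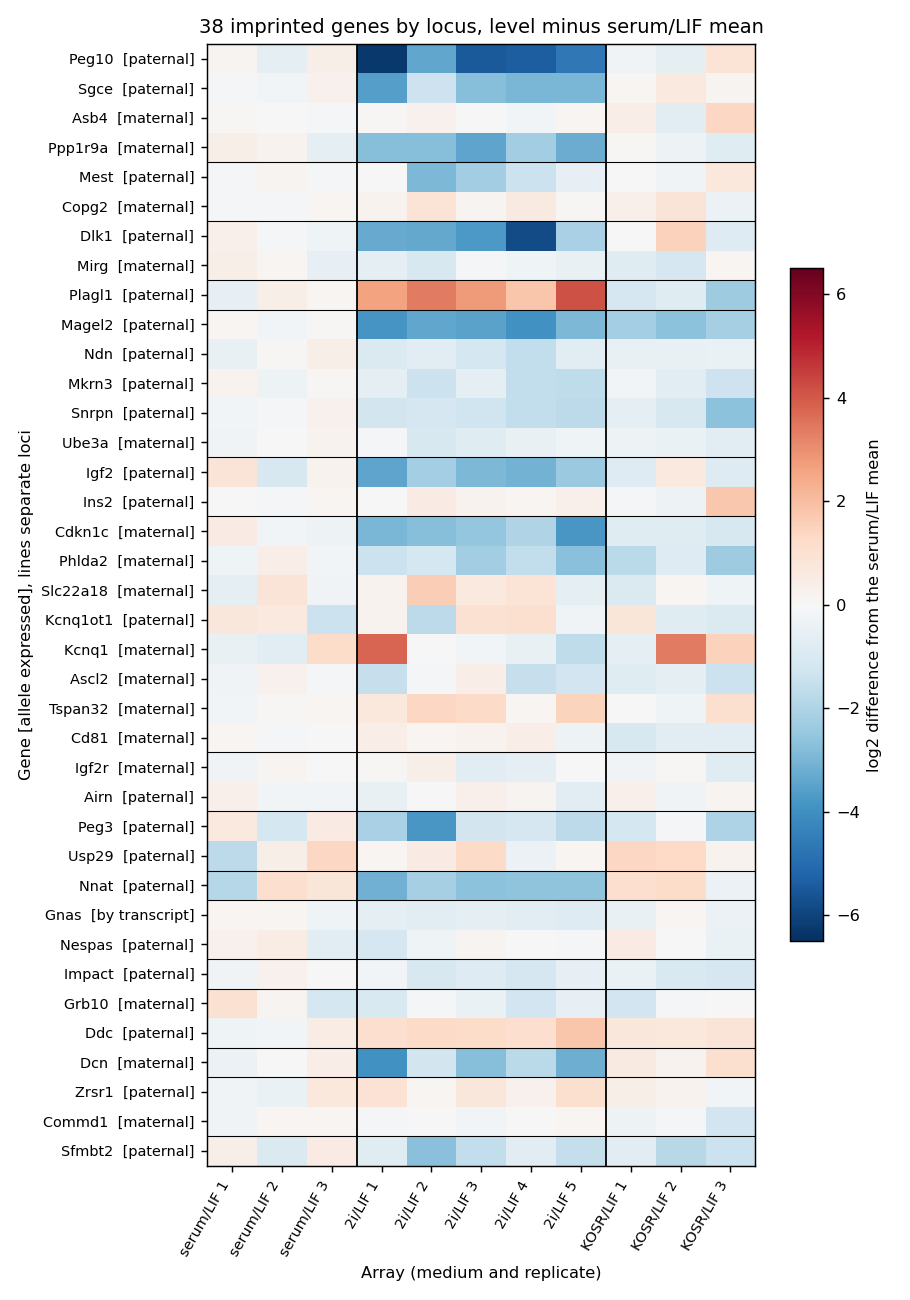
Level of the 38 tested imprinted genes on each array, as the log2 difference from the gene's serum/LIF mean. Columns are the 11 arrays by medium and rows are genes by locus, with the allele known to be expressed in brackets; blue is lower and red higher. The blue rows across the 5 2i/LIF columns include Peg10, Sgce, Ppp1r9a, Dlk1, Magel2, Igf2, Cdkn1c and Nnat, and the row that is red across 2i/LIF is Plagl1. Most 2i/LIF signals of Peg10, Igf2 and Dcn were not well above background.

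**Figure D2:**
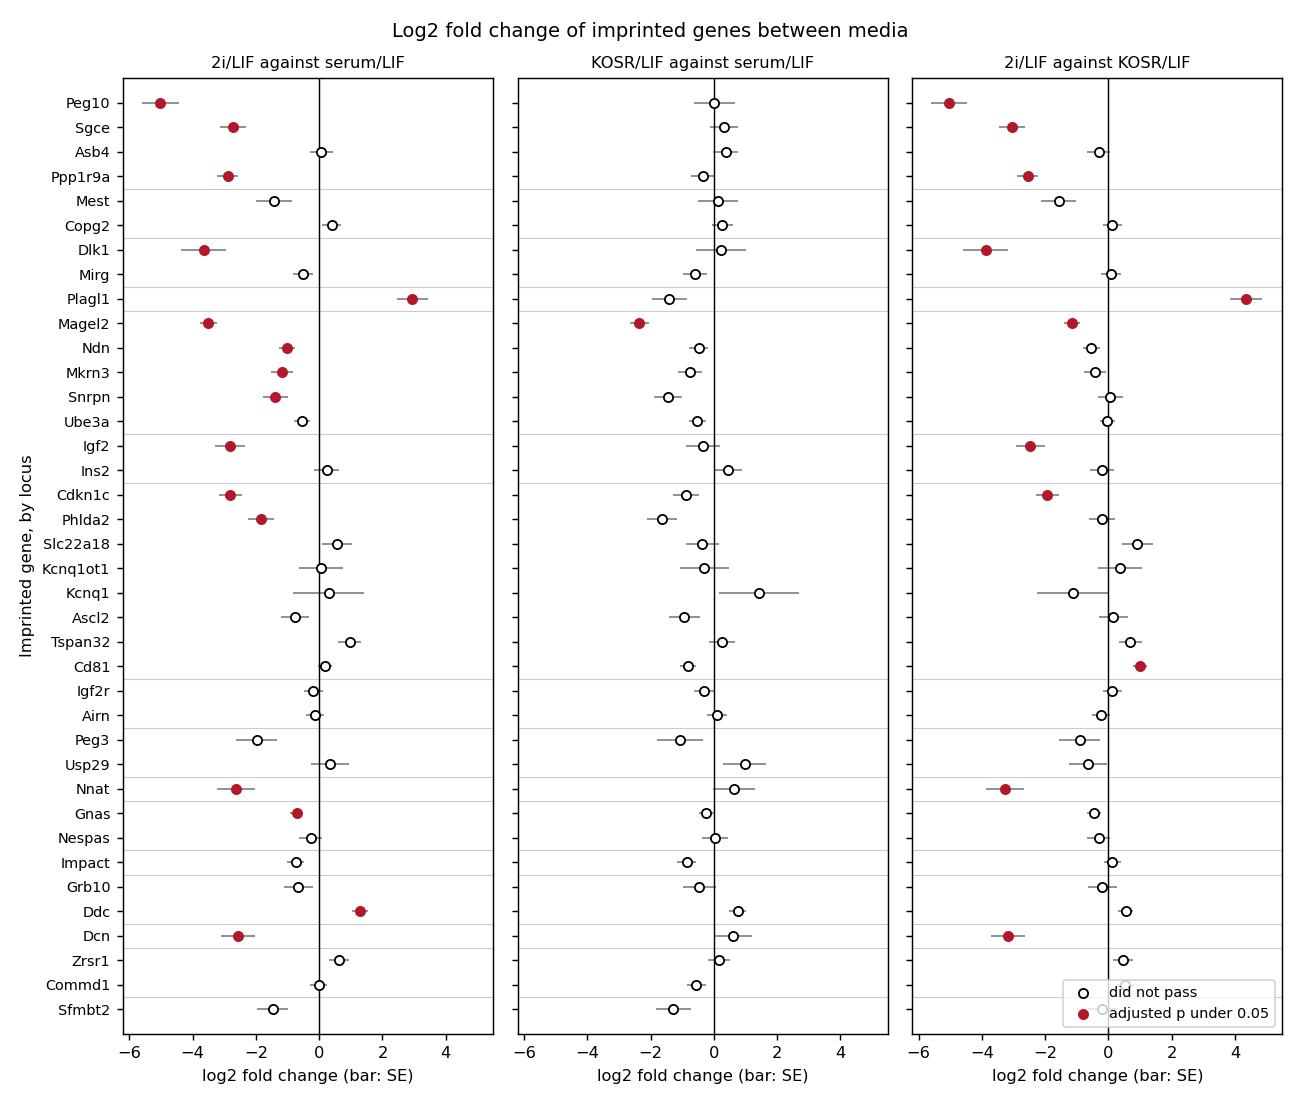
Log2 fold change of each tested imprinted gene in the 3 comparisons, with the SE as a bar; filled points passed at an adjusted p under 0.05. The panels hold 16 filled points (2i/LIF with serum/LIF), 1 (KOSR/LIF with serum/LIF) and 11 (2i/LIF with KOSR/LIF). The points for Dcn in 2i/LIF are fitted values from signals that were not well above background on any 2i/LIF array.

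Of the 28 calls, 20 stood whichever of the 11 arrays was left out, namely 10 of the 16 calls of 2i/LIF with serum/LIF, the single call of KOSR/LIF with serum/LIF and 9 of the 11 calls of 2i/LIF with KOSR/LIF. The calls that ended are named with their gene. Without KOSR/LIF replicate 3, the array with the weakest signal, all 28 calls stood, no other member was called, and the members' medians were -0.68, -0.19 and -0.38 for 2i/LIF with serum/LIF, KOSR/LIF with serum/LIF and 2i/LIF with KOSR/LIF. Neighbouring genes did not all change in the same way, and the loci are taken in turn. Counts within a locus are to be read beside the shares of all genes called lower. These were 9.98% in 2i/LIF against serum/LIF and 8.72% in 2i/LIF against KOSR/LIF.

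To show what lies at the start of members that moved, promoter windows of 300 bases (250 before and 50 after the annotated start) were read from RefSeq, build GRCm38.p6. Of the 45 members 35 had at least 1 window used here, 53 windows in all. The other 10 members, among them Peg10, Sgce, Cdkn1c and Dcn, gave none. Impact, also among these 10, was left out before counting, and whether the table holds a window for it was not tested. Each window was searched on both strands for TGCCGC, the hexamer that the imprint-keeping protein ZFP57 binds when its CpG is methylated. It was present in 12 of the 53 member windows (22.6%), from 11 members, and in 11.6% of all 32851 windows of the table. The median number of CpG dinucleotides was 11 in member windows and 7 in all windows. Windows with the hexamer belonged to members that rose (Plagl1), fell (Nnat, Igf2 and Snrpn), were not called (Commd1, Copg2, Grb10 and Mest) or were not tested (Meg3, Slc22a2 and Zim1). Capitals mark the hexamer, here in its reverse complement GCGGCA. The first 2 windows are shown because they hold it at a gene that rose and a gene that fell, the next because it belongs to a gene that fell without it, and the last 3 because they are neighbours on chromosome 7 that all fell in 2i/LIF.
Plagl1: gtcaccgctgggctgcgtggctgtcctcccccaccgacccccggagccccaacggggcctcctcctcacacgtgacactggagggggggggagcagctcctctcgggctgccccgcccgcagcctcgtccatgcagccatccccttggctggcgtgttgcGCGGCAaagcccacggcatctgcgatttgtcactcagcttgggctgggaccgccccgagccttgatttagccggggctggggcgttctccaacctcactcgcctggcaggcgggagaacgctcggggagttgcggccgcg
Nnat: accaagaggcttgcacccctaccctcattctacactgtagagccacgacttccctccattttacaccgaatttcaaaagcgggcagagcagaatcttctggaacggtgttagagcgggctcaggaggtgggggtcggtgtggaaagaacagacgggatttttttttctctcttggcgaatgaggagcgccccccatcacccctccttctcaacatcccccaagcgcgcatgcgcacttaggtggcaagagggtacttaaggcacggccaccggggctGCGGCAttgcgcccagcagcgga
Dlk1: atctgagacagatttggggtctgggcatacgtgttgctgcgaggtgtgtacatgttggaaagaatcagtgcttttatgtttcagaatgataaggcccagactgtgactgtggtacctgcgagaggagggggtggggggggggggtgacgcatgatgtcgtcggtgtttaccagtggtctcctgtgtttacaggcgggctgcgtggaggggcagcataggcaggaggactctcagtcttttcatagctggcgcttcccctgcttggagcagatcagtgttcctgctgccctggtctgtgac
Ndn: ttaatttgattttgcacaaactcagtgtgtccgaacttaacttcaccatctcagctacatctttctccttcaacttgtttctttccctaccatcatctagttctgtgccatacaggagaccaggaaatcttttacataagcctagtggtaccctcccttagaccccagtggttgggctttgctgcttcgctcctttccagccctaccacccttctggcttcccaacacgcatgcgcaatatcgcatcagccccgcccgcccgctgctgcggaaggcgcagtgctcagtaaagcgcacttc
Magel2: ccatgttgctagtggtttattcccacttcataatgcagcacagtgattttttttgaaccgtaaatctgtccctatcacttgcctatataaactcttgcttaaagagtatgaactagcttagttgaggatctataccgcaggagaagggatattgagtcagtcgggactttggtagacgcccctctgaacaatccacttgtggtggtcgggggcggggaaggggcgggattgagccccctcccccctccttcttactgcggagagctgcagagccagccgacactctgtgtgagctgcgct
Mkrn3: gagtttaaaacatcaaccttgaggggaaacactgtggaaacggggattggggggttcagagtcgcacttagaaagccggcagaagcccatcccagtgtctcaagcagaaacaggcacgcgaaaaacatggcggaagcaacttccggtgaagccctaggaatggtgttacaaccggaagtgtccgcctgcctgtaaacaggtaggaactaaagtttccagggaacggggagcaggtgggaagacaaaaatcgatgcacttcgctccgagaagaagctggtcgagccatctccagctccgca
The Plagl1 window is on the + strand (chr10:13090582-13090881) with 26 CpG, and that of Nnat on the + strand (chr2:157559828-157560127) with 17. The Dlk1 window (+ strand, chr12:109452573-109452872) has 9 CpG. On chromosome 7, the windows of Ndn (+ strand, chr7:62348027-62348326), Magel2 (+ strand, chr7:62376729-62377028) and Mkrn3 (- strand, chr7:62420104-62420403) have 11, 10 and 15. A hexamer in these letters is a description of the sequence, and methylation was not measured.

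At the Peg10 and Sgce locus, 3 of 4 members fell in 2i/LIF against both other media, and KOSR/LIF did not differ detectably from serum/LIF. Peg10 is a gene derived from a retrotransposon and needed to build the placenta. Its levels were -0.19, -0.96 and -0.01 in serum/LIF and -0.61, -1.01 and 0.52 in KOSR/LIF, replicates in order. In 2i/LIF they were -6.63, -3.75, -5.87, -5.75 and -5.02. All 5 arrays of 2i/LIF lay far below the other 6, and the probe was well above background on 1 of them, replicate 5. The change was -5.02 ± 0.57 against serum/LIF (adjusted p = 0.000127) and -5.04 ± 0.57 against KOSR/LIF (adjusted p = 0.000183). When signals not well above background were set to the lowest that was on their array (called raised here), these became -4.17 and -4.18. With normexp background correction they were -2.05 and -2.07, and both calls stood. KOSR/LIF and serum/LIF differed by 0.02 ± 0.64.

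Sgce, which shares its promoter region with Peg10 and encodes epsilon-sarcoglycan, a membrane protein, was measured on all 11 arrays. Its levels were 0.74, 0.73 and 1.19 in serum/LIF, -2.68, -0.48, -1.87, -2.08 and -2.08 in 2i/LIF and 1.0, 1.53 and 1.09 in KOSR/LIF. The 2i/LIF arrays were all lower than the rest, with replicate 2 nearest to them, as it was for Peg10. The changes of -2.73 ± 0.41 and -3.05 ± 0.41 in 2i/LIF against serum/LIF and KOSR/LIF had adjusted p = 0.000725 and 0.000499. Ppp1r9a, which encodes the actin-binding protein neurabin and is known for expression from the maternal copy, fell beside its paternally expressed neighbours. It stood at 2.59, 2.46 and 1.58 in serum/LIF, -0.55, -0.55, -1.21, -0.07 and -1.0 in 2i/LIF and 2.30, 1.90 and 1.41 in KOSR/LIF. No 2i/LIF array reached any array of the other media, and the changes were -2.89 ± 0.33 (adjusted p = 0.000135) and -2.54 ± 0.33 (adjusted p = 0.000443).

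Asb4, the fourth member of this locus, encodes a subunit of ubiquitin ligases, and its probes disagreed. The brighter probe, which stood for the gene, gave 0.06 ± 0.36 in 2i/LIF against serum/LIF and -0.31 ± 0.36 against KOSR/LIF, and passed in neither. The dimmer probe, which stood well above background on 6 of the 11 arrays, gave -2.47 (adjusted p = 0.00138 over all named probes) and -2.57 (adjusted p = 0.00145), with 4 of the 5 2i/LIF signals not well above background. Averaged over its probes Asb4 fell in 2i/LIF against serum/LIF (-1.20, adjusted p = 0.00666), against the sign of the brighter probe. Calcr, the calcitonin receptor gene, lies in the same imprinted cluster but is not a member. In 2i/LIF its signal stayed below that mark on all 5 arrays, and it was at least 19.5-fold lower than in serum/LIF (adjusted p = 3.56e-06) and at least 1.84-fold lower than in KOSR/LIF (adjusted p = 0.00101). In KOSR/LIF it changed by -3.41 ± 0.45 against serum/LIF (adjusted p = 0.00419), or -3.13 with dim signals raised, so it differed there where Peg10, Sgce and Ppp1r9a were not called.

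The locus of Mest on the same chromosome held no call on the probes that stood for its genes. Mest, a gene of the hydrolase fold family expressed in mesoderm, had mean levels of 3.53 ± 0.16 (SD, n = 3) in serum/LIF, 2.10 ± 1.20 (SD, n = 5) in 2i/LIF and 3.67 ± 0.47 (SD, n = 3) in KOSR/LIF. The 2i/LIF arrays were spread widely, at 3.51, 0.62, 1.25, 2.12 and 2.99, and replicate 1 lay inside the serum/LIF range. The change was -1.43 ± 0.56 against serum/LIF (adjusted p = 0.114) and -1.57 ± 0.56 against KOSR/LIF (adjusted p = 0.0875). Without 2i/LIF replicate 1 it would have passed in both, at -1.79 (adjusted p = 0.0307) and -1.93 (adjusted p = 0.0257). Of its other probes, adjusted over all named probes, the dimmest passed in both, with -1.22 (adjusted p = 0.0498) and -1.27 (adjusted p = 0.0469), and the other did not (-1.24, adjusted p = 0.0897, and -1.10, adjusted p = 0.141). Copg2, a coat protein subunit gene that overlaps Mest, changed by 0.39 ± 0.30 against serum/LIF and was not called.

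**Figure D3:**
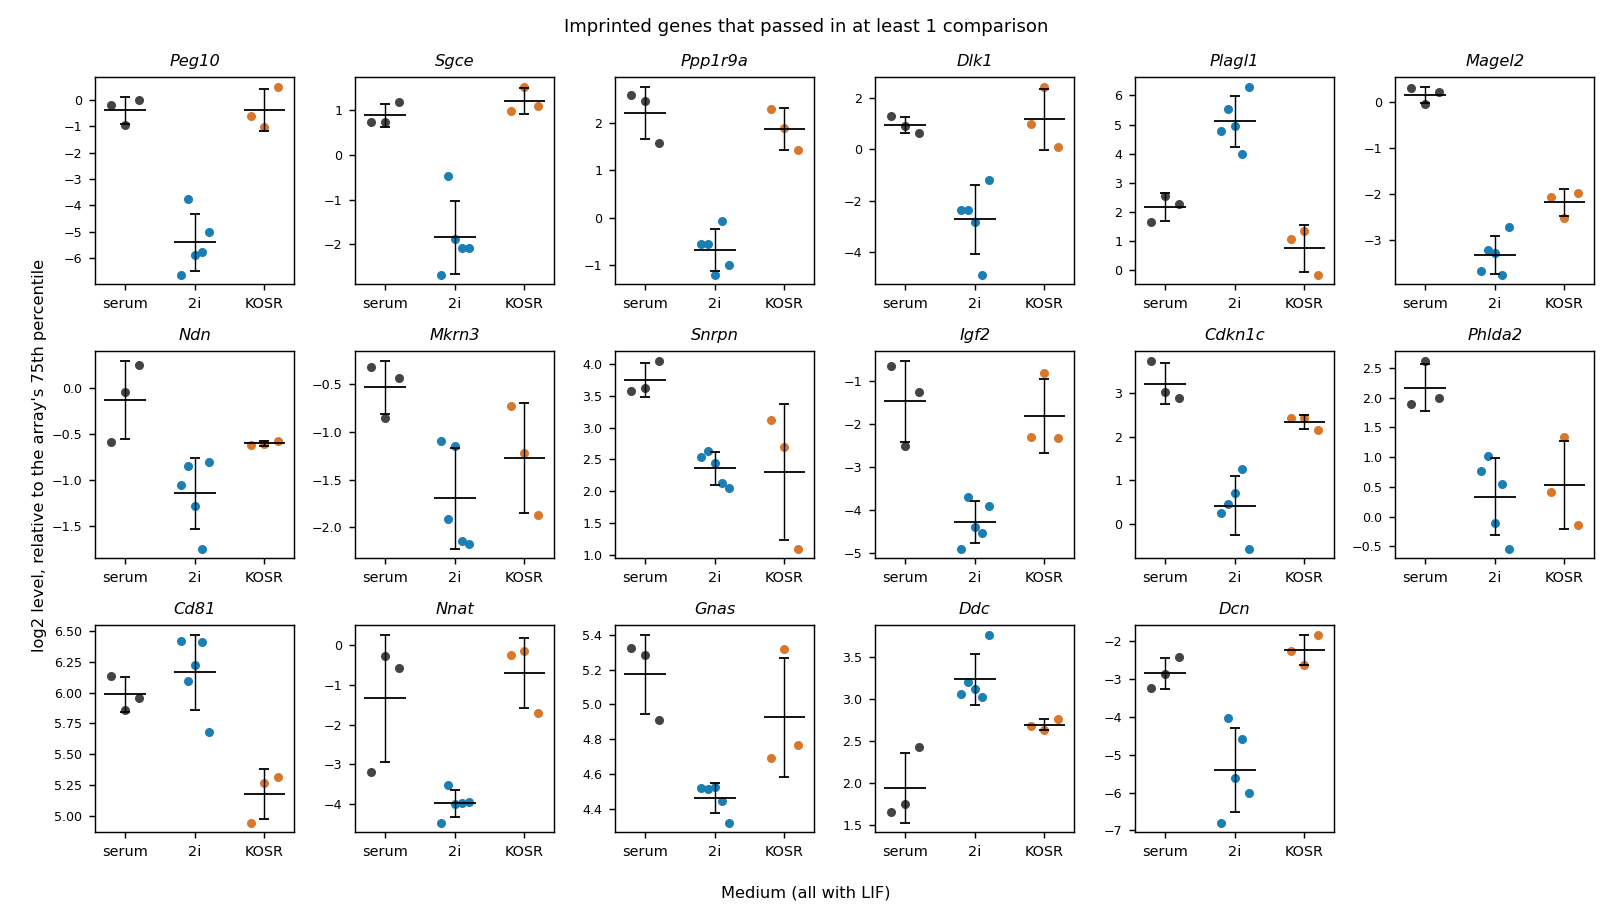
Levels of the 17 imprinted genes that passed in at least 1 comparison, as log2 intensity relative to the array's 75th percentile, in serum, 2i and KOSR media, all with LIF. Each point is 1 array (3, 5 and 3), the line is the mean and the bar the SD, and each panel has its own axis. The 2i/LIF points lie below all serum/LIF points in 14 panels, above them in Plagl1 and Ddc, and among them in Cd81.

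At the Dlk1 to Dio3 locus on chromosome 12, the protein-coding gene Dlk1 fell in 2i/LIF while the noncoding RNA Mirg was not called. Dlk1 encodes a membrane protein that restrains the formation of fat cells and is expressed from the paternal copy. Its levels were 1.28, 0.88 and 0.64 in serum/LIF and 0.97, 2.43 and 0.08 in KOSR/LIF. In 2i/LIF they were -2.35, -2.38, -2.82, -4.88 and -1.20, so all 5 lay below the other media, with replicate 4 far down and not well above background and replicate 5 the nearest. The change was -3.65 ± 0.71 against serum/LIF (adjusted p = 0.00374) and -3.88 ± 0.71 against KOSR/LIF (adjusted p = 0.00337). With normexp these were -2.34 and -2.51, and within scan day 3, with 1 serum/LIF array, the first was -2.41 (adjusted p = 0.0887). A second, dimmer probe was well above background on all 3 serum/LIF arrays, on 2 of 3 in KOSR/LIF and on 1 of 5 in 2i/LIF. Mirg, a noncoding host transcript of microRNAs expressed from the maternal copy, had means of 3.93 ± 0.48, 3.42 ± 0.34 and 3.34 ± 0.65 (SD, n = 3, 5 and 3) in serum/LIF, 2i/LIF and KOSR/LIF. It changed by -0.51 ± 0.33 in 2i/LIF against serum/LIF and by -0.59 ± 0.37 in KOSR/LIF against serum/LIF, neither of which passed.

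Dio3, which inactivates thyroid hormone and ends this locus, is not a member and was higher in 2i/LIF, opposite to Dlk1. The change of Dio3 was 2.27 ± 0.68 against serum/LIF (adjusted p = 0.0404) and 2.93 ± 0.68 against KOSR/LIF (adjusted p = 0.0134). Among its 2i/LIF arrays, replicate 4 was at 1.52 and the others between -2.36 and -0.77. The first call was lost in 8 of the 11 fits that left out 1 array (adjusted p from 0.0502 to 0.149), without any serum/LIF array, 2i/LIF replicates 1, 2 or 5 or KOSR/LIF replicates 1 or 3, and the second was lost without KOSR/LIF replicate 1 (adjusted p = 0.0566).

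Plagl1 went the other way from most members. It encodes a zinc finger transcription factor that can arrest the cell cycle, is expressed from the paternal copy and is known to influence a network of other imprinted genes. Its levels were 1.64, 2.56 and 2.28 in serum/LIF, 4.77, 5.52, 4.95, 3.98 and 6.30 in 2i/LIF and 1.06, 1.36 and -0.16 in KOSR/LIF. Every 2i/LIF array was above every other array, and every KOSR/LIF array was below every serum/LIF array. In 2i/LIF it rose by 2.94 ± 0.50, 7.69-fold, against serum/LIF (adjusted p = 0.00159) and by 4.35 ± 0.50, 20.4-fold, against KOSR/LIF (adjusted p = 0.000185). KOSR/LIF against serum/LIF gave -1.41 ± 0.56, which did not pass (adjusted p = 0.196). A second bright probe gave 3.02 and 4.51 in 2i/LIF against serum/LIF and KOSR/LIF. A pair of dimmer probes gave 0.82 and 0.82 against serum/LIF and -0.07 and 0.41 against KOSR/LIF, so the probes differed in size and, against KOSR/LIF, in sign. Averaged over the 4 probes the changes were 1.90 and 2.30, and both calls stood.

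The Snrpn and Ube3a locus on chromosome 7, the region altered in Prader-Willi and Angelman syndromes in humans, had 4 of 5 members called lower in 2i/LIF against serum/LIF. All 4 are expressed from the paternal copy. Magel2, a MAGE family gene whose protein works with ubiquitin ligases, was called between every pair of media. It stood at 0.31, -0.03 and 0.23 in serum/LIF, -3.68, -3.22, -3.28, -3.76 and -2.72 in 2i/LIF and -2.06, -2.51 and -1.98 in KOSR/LIF. The 3 groups of arrays did not overlap, with serum/LIF highest and 2i/LIF lowest. The changes were -3.51 ± 0.27 in 2i/LIF against serum/LIF (11.4-fold lower, adjusted p = 7.7e-06), -2.35 ± 0.30 in KOSR/LIF against serum/LIF (5.11-fold lower, adjusted p = 0.00392) and -1.15 ± 0.27 in 2i/LIF against KOSR/LIF (adjusted p = 0.0124). The last of these was lost without KOSR/LIF replicate 1 (-1.09, adjusted p = 0.0535) and with normexp (-0.40, adjusted p = 0.0569). Normexp also gave -2.01 for 2i/LIF against serum/LIF, and the authors' deposited value table gave -1.55 for KOSR/LIF against serum/LIF (adjusted p = 0.0434), and these calls stood.

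The neighbours of Magel2 moved less. Ndn encodes necdin, a MAGE family protein of differentiating neurons, and stood at -0.59, -0.05 and 0.25 in serum/LIF, -1.06, -0.85, -1.28, -1.75 and -0.80 in 2i/LIF and -0.63, -0.61 and -0.58 in KOSR/LIF. The KOSR/LIF arrays were tightly grouped above all 2i/LIF arrays and beside the lowest serum/LIF array. Its change was -1.02 ± 0.27 in 2i/LIF against serum/LIF (adjusted p = 0.0212). Leaving out serum/LIF replicate 2 or 3 ended the call (adjusted p = 0.0834 and 0.116). Mkrn3, a makorin ring finger gene, stood at -0.31, -0.85 and -0.43 in serum/LIF, -1.1, -1.92, -1.15, -2.14 and -2.17 in 2i/LIF and -0.73, -1.22 and -1.88 in KOSR/LIF. Serum/LIF and 2i/LIF did not overlap, and KOSR/LIF spanned much of both. The change of -1.16 ± 0.34 (adjusted p = 0.0373) was near the threshold and was lost in 7 of the 11 fits that left out 1 array (adjusted p from 0.0505 to 0.152), those without serum/LIF replicates 1, 2 or 3, 2i/LIF replicates 2, 4 or 5 or KOSR/LIF replicate 2. It was also lost with quantile scaling (adjusted p = 0.0749) and with normexp (-0.76, adjusted p = 0.0514), and a second, about equally bright probe gave -0.91 and did not pass (adjusted p = 0.209 over all named probes).

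Snrpn encodes a protein of the splicing machinery and spans the imprinting control region of this locus. Levels of Snrpn were 3.57, 3.61 and 4.05 in serum/LIF, 2.55, 2.63, 2.45, 2.13 and 2.06 in 2i/LIF and 3.11, 2.69 and 1.1 in KOSR/LIF. Both other media lay below serum/LIF on every array, and KOSR/LIF replicate 3 was the lowest of all 11. The change was -1.38 ± 0.39 in 2i/LIF against serum/LIF (adjusted p = 0.0291) and -1.44 ± 0.43 in KOSR/LIF against serum/LIF, which did not pass (adjusted p = 0.0885). The first call was lost without serum/LIF replicates 1, 2 or 3 or 2i/LIF replicates 4 or 5 (adjusted p from 0.0594 to 0.124), with the scan day as a block (adjusted p = 0.0516) and with no filter on dim probes (adjusted p = 0.0511). Another Snrpn probe, well above background on all 11 arrays, passed in both comparisons with -1.46 (adjusted p = 0.00468) in 2i/LIF and -1.33 (adjusted p = 0.0442) in KOSR/LIF, adjusted over all named probes. The remaining probe was well above background only on the 3 serum/LIF arrays. Between 2i/LIF and KOSR/LIF Snrpn gave 0.06 ± 0.39, and in the authors' deposited value table, fitted in the same way, -0.81 (adjusted p = 0.0422), with the sign turned. Ube3a, the ubiquitin ligase gene imprinted in neurons, changed by -0.55 ± 0.25 in 2i/LIF and -0.52 ± 0.28 in KOSR/LIF against serum/LIF, and passed in neither.

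At the H19 and Igf2 locus, Igf2, the fetal growth factor expressed from the paternal copy, fell in 2i/LIF against both media. Its levels were -0.65, -2.50 and -1.26 in serum/LIF, -4.90, -3.70, -4.39, -4.54 and -3.90 in 2i/LIF and -2.31, -0.83 and -2.32 in KOSR/LIF. All 2i/LIF arrays were lowest, and the probe was well above background on 2 of those 5 and on 2 of the 3 KOSR/LIF arrays. The change was -2.81 ± 0.47 against serum/LIF (adjusted p = 0.00151) and -2.47 ± 0.47 against KOSR/LIF (adjusted p = 0.00436), or -2.73 and -2.38 with dim signals raised. With normexp the changes were -1.12 and -0.77, and the second did not pass (adjusted p = 0.104). Within scan day 1, with 2 arrays a medium, they were -2.89 and -2.89 and did not pass (adjusted p = 0.059 and 0.0639). Ins2, an insulin gene next to Igf2, changed by 0.24 ± 0.39 in 2i/LIF against serum/LIF and was not called.

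In the neighbouring Kcnq1 domain, 2 of 8 members fell in 2i/LIF against serum/LIF, both expressed from the maternal copy and both restraining growth. Cdkn1c encodes p57, an inhibitor of cyclin-dependent kinases. It stood at 3.76, 3.04 and 2.89 in serum/LIF, 0.24, 0.45, 0.70, 1.26 and -0.58 in 2i/LIF and 2.44, 2.44 and 2.17 in KOSR/LIF. The 3 groups did not overlap, with 2i/LIF lowest and KOSR/LIF between. Its change was -2.81 ± 0.37 in 2i/LIF against serum/LIF (7.03-fold lower, adjusted p = 0.000299), -1.93 ± 0.37 against KOSR/LIF (adjusted p = 0.00419) and, not called, -0.88 ± 0.41 in KOSR/LIF against serum/LIF (adjusted p = 0.278).

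Phlda2, which restrains growth of the placenta, stood at 1.89, 2.62 and 1.99 in serum/LIF, 0.76, 1.02, -0.11, 0.55 and -0.54 in 2i/LIF and 0.41, 1.33 and -0.14 in KOSR/LIF. All arrays of the other media lay below serum/LIF and overlapped each other. The change was -1.83 ± 0.41 in 2i/LIF against serum/LIF (adjusted p = 0.009, and 0.0529 if serum/LIF replicate 2 is left out) and -1.64 ± 0.46 in KOSR/LIF against serum/LIF (adjusted p = 0.071). The third call of this domain was Cd81, a tetraspanin gene, with levels of 6.14, 5.86 and 5.96 in serum/LIF, 6.42, 6.09, 6.23, 6.41 and 5.68 in 2i/LIF and 4.94, 5.26 and 5.32 in KOSR/LIF. KOSR/LIF was the low group there, and 2i/LIF and serum/LIF overlapped. Cd81 was higher in 2i/LIF than in KOSR/LIF by 0.99 ± 0.22 (adjusted p = 0.0114), a call that ended without KOSR/LIF replicate 1 (0.88, adjusted p = 0.0603) and in the authors' deposited value table (0.73, adjusted p = 0.0568), and KOSR/LIF against serum/LIF gave -0.81 ± 0.25 (adjusted p = 0.0981).

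The other members of the Kcnq1 domain passed in no comparison. Kcnq1ot1, the noncoding RNA that silences the domain on the paternal copy, changed by 0.07 ± 0.69 in 2i/LIF against serum/LIF, with levels on the 11 arrays between -1.98 and 0.74. Kcnq1, a potassium channel gene, was well above background on 1 array of each medium. Ascl2, a transcription factor of the trophoblast, gave -0.77 ± 0.45 and -0.93 ± 0.50 in 2i/LIF and KOSR/LIF against serum/LIF. Slc22a18, a transporter gene, gave 0.56 ± 0.48 and -0.36 ± 0.53. Tspan32, another tetraspanin gene, gave 0.96 ± 0.36 in 2i/LIF against serum/LIF (adjusted p = 0.102), and a dimmer probe gave 1.36 (adjusted p = 0.0342 over all named probes).

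Nnat, the only member of its locus on chromosome 2, encodes neuronatin, a membrane protein of brain and endocrine cells, from the paternal copy. Its levels were -3.18, -0.27 and -0.57 in serum/LIF, -4.48, -3.52, -3.99, -3.97 and -3.96 in 2i/LIF and -0.25, -0.16 and -1.72 in KOSR/LIF. The 2i/LIF arrays were the lowest and close together, and serum/LIF replicate 1 was nearer to them than to the other serum/LIF arrays. Nnat changed by -2.64 ± 0.60 in 2i/LIF against serum/LIF (adjusted p = 0.00918) and by -3.27 ± 0.60 against KOSR/LIF (adjusted p = 0.00339). The first call ended when serum/LIF replicate 2 or 3 was left out (adjusted p = 0.0556 and 0.0551). Normexp gave -1.24 and -1.66, and both calls stood, while within scan day 1 the changes were -2.26 (adjusted p = 0.167) and -3.78 (adjusted p = 0.053).

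Gnas, farther along chromosome 2, encodes the alpha subunit of the stimulatory G protein and yields several transcripts that differ in their imprinting. The brightest probe, which stood for the gene, gave 5.32, 5.28 and 4.91 in serum/LIF, 4.52, 4.51, 4.52, 4.44 and 4.32 in 2i/LIF and 4.69, 5.32 and 4.77 in KOSR/LIF. The 2i/LIF arrays were close together and below all others. The change of -0.71 ± 0.21 against serum/LIF (adjusted p = 0.0391) was the smallest among the 16 calls and was lost in 6 of 11 fits (adjusted p from 0.0584 to 0.174), those without serum/LIF replicates 1 or 2 or 2i/LIF replicates 1, 3, 4 or 5. It was also lost with the slide as a block (adjusted p = 0.0596) and with no filter on dim probes (adjusted p = 0.0681). A dim probe for another Gnas transcript was well above background on 4 of the 11 arrays, 1 of them from 2i/LIF, and with the mean over probes the change was -1.23 (adjusted p = 0.00856). Nespas, the antisense RNA of the locus, changed by -0.26 ± 0.36 in 2i/LIF against serum/LIF and was not called.

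Ddc, which encodes the decarboxylase that makes dopamine and serotonin and lies beside Grb10, was the second member to rise in 2i/LIF. It stood at 1.66, 1.75 and 2.42 in serum/LIF, 3.05, 3.20, 3.11, 3.02 and 3.76 in 2i/LIF and 2.68, 2.63 and 2.76 in KOSR/LIF. The 3 groups did not overlap, with serum/LIF lowest and 2i/LIF highest. Its change was 1.29 ± 0.25 in 2i/LIF against serum/LIF (adjusted p = 0.00356), and KOSR/LIF lay between, 0.75 ± 0.28 above serum/LIF and 0.54 ± 0.25 below 2i/LIF, neither of which passed. A dimmer probe gave larger values in 2i/LIF, 2.86 against serum/LIF and 2.36 against KOSR/LIF (adjusted p = 7.04e-05 and 0.000397 over all named probes). With the mean over probes the first change was 2.08. Grb10, an adaptor that dampens growth factor signalling, changed by -0.66 ± 0.46 in 2i/LIF against serum/LIF and had serum/LIF levels of 0.56, -0.26 and -1.56, nearly the whole range of the 11 arrays.

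Dcn encodes decorin, a proteoglycan of the extracellular matrix, and is imprinted in the placenta. Its levels were -3.24, -2.86 and -2.43 in serum/LIF, -2.26, -2.62 and -1.83 in KOSR/LIF and -6.80, -4.03, -5.61, -4.59 and -6.00 in 2i/LIF. The probe was well above background on all 6 arrays of serum/LIF and KOSR/LIF and on 0 of 5 in 2i/LIF, so only a bound can be given there. Against serum/LIF, Dcn was at least 3.77-fold lower in 2i/LIF and, against KOSR/LIF, at least 5.75-fold lower. The fitted changes of -2.56 and -3.17 had adjusted p = 0.00578 and 0.00211. With normexp the changes were -0.56 and -0.70 on the log2 scale, and both calls stood. These changes are smaller than the bounds, which hold only for the main processing.

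Markers of fibroblasts, which make decorin, were read beside Dcn, and not all of them fell with it. Beside the marker counts here and below, 9.98% of all genes were lower and 6.74% higher in 2i/LIF against serum/LIF. For 2i/LIF against KOSR/LIF these shares were 8.72% and 5.95%, and for KOSR/LIF against serum/LIF 2.21% and 2.37%. Of 11 fibroblast markers tested (12 listed), 6 fell in 2i/LIF against serum/LIF, led by Mmp2 (-3.42 ± 0.56) and Fbn1 (-3.26 ± 0.48), while 2 had values above 0, not called. Against KOSR/LIF 6 also fell, led by Col1a2 and Col1a1, and 2 had values above 0, not called. Col1a2 was the 1 fibroblast marker higher in KOSR/LIF than in serum/LIF. Their summed signal, on the log2 scale, ranged over the serum/LIF arrays from 2.62 to 4.00, over those of 2i/LIF from 1.11 to 1.56 and over those of KOSR/LIF from 3.15 to 4.03, and Lum was not well above background on any KOSR/LIF array. Beside Peg10 and Phlda2, 4 of 11 trophoblast markers tested (12 listed) fell in 2i/LIF against serum/LIF, led by Krt18 (-5.13 ± 0.51) and Hand1 (at least 11.7-fold lower), and Tead4 rose. Krt8 and Krt18 fell in KOSR/LIF against serum/LIF, and 3 markers, led by Hand1 and Plac1, fell in 2i/LIF against KOSR/LIF, where Tead4 rose. The summed trophoblast signal ranged over the arrays of serum/LIF from 6.47 to 7.49, of 2i/LIF from 3.80 to 4.53 and of KOSR/LIF from 3.97 to 5.12. Hand1 and Plac1 were not well above background on any 2i/LIF array, nor Elf5 on any of KOSR/LIF. Some of these marker calls rested on single arrays. Col1a2 in KOSR/LIF was lost without serum/LIF or KOSR/LIF replicates 1 or 2 (adjusted p from 0.0647 to 0.107), and Col1a1 in 2i/LIF without KOSR/LIF replicates 1 or 2 (0.0542 to 0.0552). Krt8 in KOSR/LIF was lost without any serum/LIF array or 2i/LIF replicate 1 (adjusted p from 0.0502 to 0.134), Krt18 there without serum/LIF replicate 1 (0.054), and the rise of Tead4 from serum/LIF without any serum/LIF array (0.0558 to 0.0877).

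Of the other marker lists, primitive endoderm had 10 tested. In 2i/LIF 2 fell against serum/LIF (Col4a1 and Dab2) and 7 against KOSR/LIF (led by Dab2 and Col4a1), while Gata4 rose in KOSR/LIF against serum/LIF. Its summed levels were 6.67 to 7.27, 6.64 to 7.34 and 5.90 to 7.51 in serum/LIF, 2i/LIF and KOSR/LIF. The mean levels of Sparc alone, a marker in this sum, were 6.87, 6.81 and 6.62. For mesoderm, Meox1 and Bmp4 of 8 tested fell in 2i/LIF against serum/LIF and Meox1 against KOSR/LIF (4.55 to 5.26, 3.82 to 4.55 and 3.97 to 5.01 in the 3 media). For neural markers, 3 of 9 fell in 2i/LIF against each other medium, led by Pax6 and Map2 and by Pax6 and Sox1, and Map2 fell in KOSR/LIF against serum/LIF (3.86 to 3.88, 3.24 to 4.31 and 3.38 to 4.36). Of 12 ES cell markers, Tfcp2l1 rose and Utf1 and Tdgf1 fell in 2i/LIF against serum/LIF. Tfcp2l1 and Sox2 were lower in KOSR/LIF than in serum/LIF, and against KOSR/LIF 5 were higher in 2i/LIF, led by Tfcp2l1 and Nanog, and Utf1 was lower. Averaged over its probes Nanog turned to -0.21 (adjusted p = 0.889). The summed ES cell marker levels were 9.62 to 10.04, 9.58 to 10.03 and 9.18 to 9.50 in the 3 media. Leaving out single arrays ended the calls of Gata4 (without serum/LIF replicate 1, adjusted p = 0.0534), Bmp4 (without serum/LIF replicates 1 or 3, 0.0716 to 0.0967), and, in KOSR/LIF, Tfcp2l1 (without serum/LIF replicates 2 or 3, 0.0525 to 0.0653) and Sox2 (without serum/LIF replicates 1 or 3, 0.0533 and 0.0542). Those of Tdgf1 (adjusted p from 0.0533 to 0.151) and Sox1 (0.0507 to 0.124) ended in 7 of 11 such fits each, those without any serum/LIF array among them. The part of these markers in the results for the imprinted genes was not tested.

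At the loci of Igf2r, Peg3, Impact, Zrsr1 and Sfmbt2, no member passed in any comparison. Igf2r, the receptor that clears IGF2, gave -0.19 ± 0.30 in 2i/LIF and -0.30 ± 0.34 in KOSR/LIF against serum/LIF, and Airn, the noncoding RNA that silences it on the paternal copy, gave -0.14 ± 0.29 and 0.09 ± 0.32. Peg3, a zinc finger gene, had means of -0.77 ± 1.01, -2.75 ± 1.09 and -1.84 ± 0.95 (SD, n = 3, 5 and 3) in serum/LIF, 2i/LIF and KOSR/LIF and missed the threshold in 2i/LIF against serum/LIF (-1.98 ± 0.65, adjusted p = 0.0602). Usp29, a gene related to deubiquitinases, starts next to Peg3 on the other strand, and their promoter windows share 263 bases. Usp29 gave 0.33 ± 0.60 in that comparison, from a probe well above background on 7 arrays. Sfmbt2, a Polycomb group gene, also came near the threshold, with -1.47 ± 0.49 (adjusted p = 0.0643) in 2i/LIF and -1.28 ± 0.55 (adjusted p = 0.236) in KOSR/LIF against serum/LIF. Impact, a regulator of translation, gave -0.73 ± 0.27 (adjusted p = 0.0903) and -0.86 ± 0.30 (adjusted p = 0.144). Zrsr1, a splicing factor gene that lies within an intron of Commd1, gave 0.63 ± 0.32 in 2i/LIF against serum/LIF, and Commd1, a copper metabolism gene, gave -0.02 ± 0.26.

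By parental copy, 9 of the 21 tested genes known for paternal expression fell and 2 rose in 2i/LIF against serum/LIF, with a median of -1.16. Of the 16 tested genes known for maternal expression, 4 fell and 0 rose, with a median of -0.35. Over all genes 9.98% were lower and 6.74% higher in that comparison, with a median of 0.03. The falling genes of maternal expression were Ppp1r9a, Cdkn1c, Phlda2 and Dcn. Against KOSR/LIF the paternal genes had 6 lower and 1 higher (median -0.42) and the maternal genes 3 lower and 1 higher (median 0.03). There 8.72% of all genes were lower and 5.95% higher (median 0.02). In KOSR/LIF against serum/LIF the medians were 0.02 and -0.41, with Magel2 the single call, and over all genes the median was -0.03 with 4.58% called. The difference between the parental classes was not tested, and genes of 1 locus are not independent of each other.

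Of 42 imprinted genes listed outside the members, 32 were tested. In 2i/LIF against serum/LIF 4 (12.5%) fell (Calcr, Gatm, Osbpl5 and Atp10a) and 2 (6.25%) rose (Cobl and Dio3), with a median of 0.19. Over all genes 9.98% were lower and 6.74% higher there, with a median of 0.03. The shares of this list were thus near those of all genes, while 36.8% of the tested members fell. Members and lists were chosen with earlier results of these data known. Only Calcr fell in KOSR/LIF against serum/LIF, where 2.21% of all genes were lower. In 2i/LIF against KOSR/LIF 3 fell (Gatm, Calcr and Osbpl5) and 3 rose (Dio3, Dact2 and Cobl), beside 8.72% and 5.95% of all genes. Gatm, a creatine synthesis gene, was not well above background in 2i/LIF and at least 2.46-fold lower than in serum/LIF. Cobl, an actin nucleator gene in the Grb10 and Ddc region, was higher by 1.87 ± 0.26 in 2i/LIF against serum/LIF (adjusted p = 0.000416) and by 0.90 ± 0.26 against KOSR/LIF, a call lost in 8 of 11 fits that left out 1 array (adjusted p from 0.0561 to 0.105), all but those without serum/LIF replicates 2 or 3 or 2i/LIF replicate 2. In 2i/LIF against serum/LIF Atp10a changed by -2.19 ± 0.51, which did not pass without serum/LIF replicate 2 (adjusted p = 0.0587). Against KOSR/LIF, Osbpl5 changed by -1.39 ± 0.36 and was lost without 2i/LIF replicate 4 or KOSR/LIF replicates 1 or 2 (adjusted p from 0.0514 to 0.074).

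Among 26 genes of imprint maintenance and DNA methylation, all tested, 2 (7.69%) fell and 1 (3.85%) rose in 2i/LIF against serum/LIF. Over all genes 9.98% were lower and 6.74% higher. The fallers were the cofactor Dnmt3l and the de novo methyltransferase Dnmt3b. Dnmt3l stood at 6.13, 6.69 and 5.71 in serum/LIF, 2.54, -0.43, 2.63, 2.50 and 2.05 in 2i/LIF and 6.43, 5.29 and 5.38 in KOSR/LIF. Every 2i/LIF array was below all others, with replicate 2 the lowest, and the change was -4.32 ± 0.63 against serum/LIF (adjusted p = 0.000635) and -3.84 ± 0.63 against KOSR/LIF (adjusted p = 0.00179). Dnmt3b changed by -1.88 ± 0.48 in 2i/LIF against serum/LIF (adjusted p = 0.0179), a call lost without serum/LIF replicates 1 or 2 (adjusted p = 0.0882 and 0.0681).

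Uhrf1, which brings the maintenance methyltransferase to newly copied DNA, was higher in 2i/LIF. It stood at 5.35, 5.33 and 5.58 in serum/LIF, 6.58, 6.35, 6.52, 6.53 and 6.80 in 2i/LIF and 6.09, 5.78 and 5.54 in KOSR/LIF. The 2i/LIF arrays were above all others. The change was 1.14 ± 0.20 against serum/LIF (adjusted p = 0.00227) and 0.75 ± 0.20 against KOSR/LIF (adjusted p = 0.0279), the latter lost without 2i/LIF replicates 1, 4 or 5 or KOSR/LIF replicates 2 or 3 (adjusted p from 0.0504 to 0.0803). Dppa3, which protects imprints in the early embryo, was low in KOSR/LIF. Its levels were 1.90, 2.69 and 3.16 in serum/LIF, 1.68, 3.46, 2.42, 2.98 and 2.02 in 2i/LIF and 0.17, 0.34 and -1.28 in KOSR/LIF. The KOSR/LIF arrays lay below all others, and those of the other media overlapped. Dppa3 changed by -2.84 ± 0.54 in KOSR/LIF against serum/LIF (adjusted p = 0.0145; 0.0534 and 0.0577 without serum/LIF replicates 2 and 3) and was higher by 2.77 ± 0.48 in 2i/LIF than in KOSR/LIF (adjusted p = 0.00258).

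Zfp57 and Dnmt1 passed in no comparison. Zfp57, whose protein binds the methylated copy of imprinting control regions, gave 0.83 ± 0.45 in 2i/LIF and 1.1 ± 0.50 in KOSR/LIF against serum/LIF, and Dnmt1, the maintenance methyltransferase, gave 0.34 ± 0.32 and -0.07 ± 0.36. The de novo methyltransferase Dnmt3a gave -0.63 ± 0.32 in 2i/LIF against serum/LIF, was not called there, and fell in 2i/LIF against KOSR/LIF (-1.32 ± 0.32, adjusted p = 0.0161), a call lost without KOSR/LIF replicate 1 or 2 (adjusted p = 0.0688 and 0.073). Ctcfl, a paralogue of the insulator protein CTCF, also fell in 2i/LIF against KOSR/LIF (-3.09 ± 0.61, adjusted p = 0.00547). In all, 3 of the 26 fell and 2 rose in 2i/LIF against KOSR/LIF, beside 8.72% and 5.95% of all genes. Dppa3 was the single call in KOSR/LIF against serum/LIF, where 4.58% of all genes were called.

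**Figure D4:**
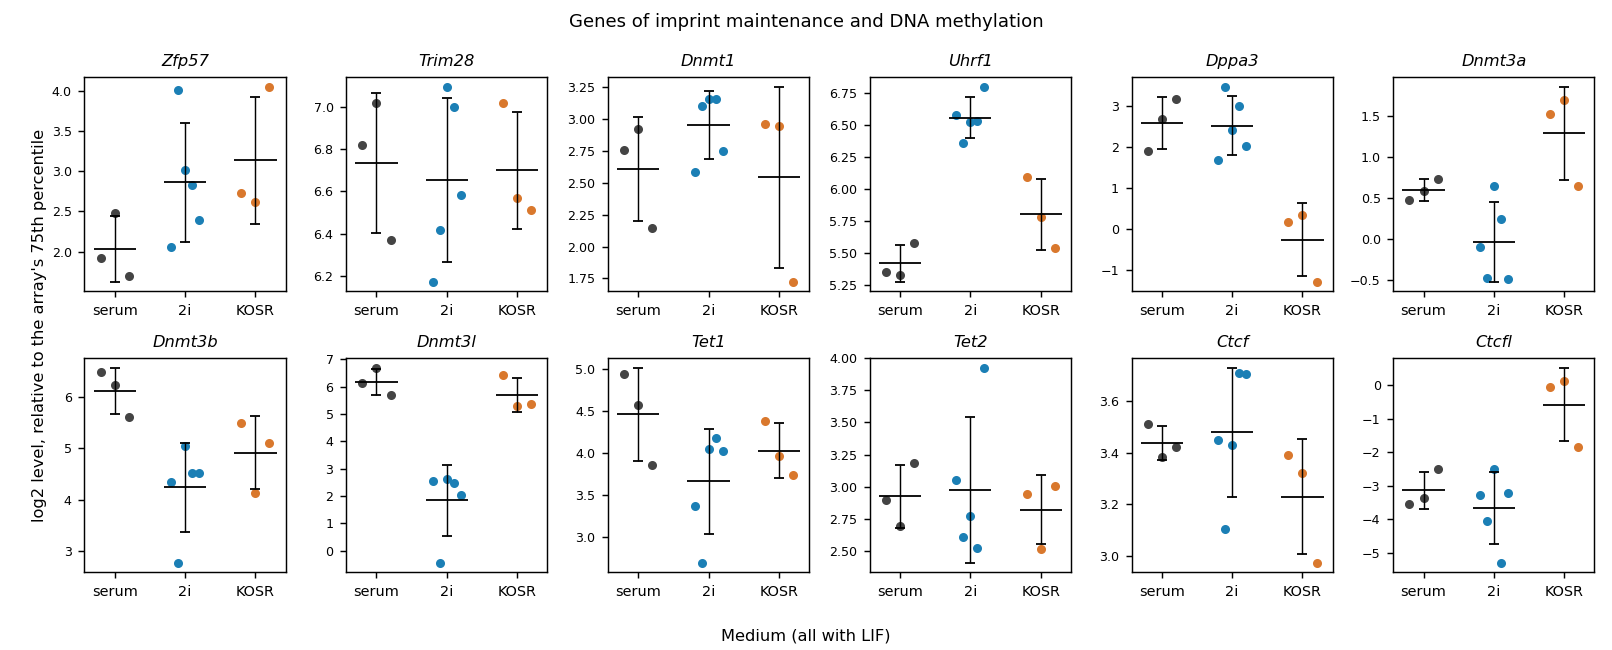
Levels of 12 genes of imprint maintenance and DNA methylation, as log2 intensity relative to the array's 75th percentile, in serum, 2i and KOSR media, all with LIF. Points are arrays, the line is the mean and the bar the SD. Dnmt3l lies lowest and Uhrf1 highest in 2i/LIF, Dppa3 is lowest in KOSR/LIF, and Dnmt1 overlaps between all media. For Zfp57 the KOSR/LIF points lie above all serum/LIF points, and the 2i/LIF points overlap both.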

How the data were processed

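Total RNA from 11 ES cell samples was labelled with Cy3 and hybridised to 1 Agilent array each, per the labels. The authors deposited scanner files whose processed intensity was background-subtracted and detrended within the array by Agilent Feature Extraction, per the file headers, and a table of intensity values whose scaling is not stated. From the processed intensity, log2 values minus each array's 75th percentile were computed. Probes were named through RefSeq accessions, kept if well above background on at least 3 of 11 arrays, and 1 probe (highest mean) stood for a gene. All 11 arrays were fitted on medium without covariates (limma 3.58.1, R 4.3.3, lmFit and eBayes), with Benjamini-Hochberg adjustment over 16279 genes and a threshold of 0.05. Precision is limited by the number of arrays. A change given as at least some fold is a bound for this processing, and an adjusted p beside it is that of the fitted change. The fit was tested on simulated data.

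Members and lists were chosen with earlier results of these data known. All members are accounted for, and those called are given array by array. Of each list the 2 called genes with the largest change in each direction are named. Dppa3, Zfp57, Dnmt1, Uhrf1, Dnmt3a, Dnmt3b and Dnmt3l are named whatever their result. Calcr, Dio3, Osbpl5, Atp10a, Lum, Elf5, Plac1 and Sparc were named after their values were seen. Alternatives covered background correction, scaling, filters, probe choice, slide, scan day, cell line and single arrays. The normexp alternative used the median spot signal, since the files hold no mean signal.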

Additional observations from a re-analysis of the deposited data

Results flagged for a closer look

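Among the 38 tested members, 1 had a 2i/LIF array far from the other 4. Ddc on 2i/LIF replicate 5 had a level of 3.76 against 3.20 on the next highest array, a gap of 0.761 of the group's range, where Dixon's critical value for 5 arrays is 0.71. With 38 groups examined, about 1 in 20 is marked by chance.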

How the results depend on the processing

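Under the 31 alternatives run, none changed the sign of a called imprinted gene. No call was lost in 9 of them, which include scan day 2, where no test was run. Every other alternative ended at least 1 call, such as 6 of 28 without serum/LIF replicate 2 and 5 of 28 with the replicate number as a block. Leaving out single arrays gave 2 to 3 members higher and 10 to 15 lower for 2i/LIF with serum/LIF (median -0.79 to -0.58), 0 higher and 1 lower for KOSR/LIF with serum/LIF (median -0.42 to -0.16), and 1 to 2 higher and 8 to 10 lower for 2i/LIF with KOSR/LIF (median -0.38 to -0.20). In those fits 11.5% to 19.7%, 1.38% to 5.62% and 10.8% to 15.9% of all genes were called, in the same order. Within scan day 3 the members' median was -0.44 in 2i/LIF against serum/LIF, from 1 serum/LIF array assumed to vary like the others and 2 of 2i/LIF. Within scan day 1, 2 members rose and 11 fell in that comparison, where 14.6% of all genes were called. In KOSR/LIF against serum/LIF 2 members were lower with normexp, the mean over probes, an eBayes trend, the slide or the title's cell line as a block, or within scan day 1 (there also 1 higher). These settings called 4.21% to 6.22% of all genes. With the slide as a random block 3 members were lower and 1 higher, and the share of all genes called was 10.2%, against 4.58% in the main fit. Asking for at least 2-fold as well left 2 members higher and 13 lower in 2i/LIF against serum/LIF. It left 0 and 1 in KOSR/LIF against serum/LIF, and 1 and 9 in 2i/LIF against KOSR/LIF. The share of all genes at this rule is not given here. Uncalled values that changed sign and passed in the alternative were Asb4 in 2i/LIF against serum/LIF (-1.20, mean over probes) and Snrpn in 2i/LIF against KOSR/LIF (-0.81, deposited table). Uncalled values could also change sign without passing, as Usp29 did in 2i/LIF against serum/LIF (0.33, and -0.18 with dim signals raised). Nanog in 2i/LIF against KOSR/LIF, a call, became -0.21 with the mean over probes. The causes were not tested. With the replicate number as a block, 2 members were higher and 11 lower in 2i/LIF against serum/LIF, 0 and 2 in KOSR/LIF against serum/LIF, and 2 and 9 in 2i/LIF against KOSR/LIF. That block called 11.8%, 3.09% and 8.65% of all genes, in the same order. By the titles, replicates 1 and 3 of KOSR/LIF came from other lines than replicates 1 and 3 of serum/LIF. Whether the replicate numbers pair any samples was not settled. Scan day 2 held 1 array each of 2i/LIF and KOSR/LIF and none of serum/LIF, so no test was run there. Signal over background limits Peg10, Igf2 and Dcn, which were detected on 1, 2 and 0 of 5 2i/LIF arrays.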
